A study of Rattus norvegicus with 5 samples.

Results

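METH pretreatment was compared with saline pretreatment in the rat dorsal striatum by ChIP-Seq of H4K5Ac, histone H4 acetylated at lysine 5. The comparison took in the 4 ChIP libraries of a series of 5, the other one being input DNA: MS and MM came from METH-pretreated rats, SS and SM from saline-pretreated rats. They were assigned by their treatment labels and paired by challenge, MS with SS after a saline challenge and MM with SM after a METH challenge. The male Sprague Dawley rats had received METH or saline intraperitoneally over 2 weeks, and 16 to 18 h after the last injection all received a single challenge, saline in SS and MS and 5 mg/kg METH in SM and MM. Striatal tissue was taken 2 h after that. Each library was a pool, of 4 samples in SS and MM and 3 in SM and MS, and 1 input library of 4 pooled samples served every group. The pairs share no library, and with 1 library per group no value has a replicate check. A difference between treatments therefore cannot be told apart from one between pools, precipitations or libraries, and the intervals given here cover counting error only.

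METH (methamphetamine) is a psychostimulant that releases dopamine, and the dorsal striatum is one of the main targets of dopamine neurons. Histone acetyltransferases add acetyl groups to lysines in the tail of histone H4 and histone deacetylases remove them. Acetylated H4 tails are found mostly at open chromatin, with narrow peaks at promoters and enhancers of active genes and lower, broad levels over gene-rich DNA. A ChIP library can therefore hold a broad component and a narrow one, besides background tags such as input DNA gives. Below, the broad distribution was measured over all tags, enriched windows included, and the narrow component at enriched windows alone. Background tags were taken out of neither, so neither measures acetylated H4 alone. Genes were not assigned to windows, because the gene table at hand is of another assembly than the files (rn4), and for the same reason striatal marker genes were not checked and no sequence is shown.

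Depth was 5860474 tags for MS, 8678325 for SS, 9311097 for MM and 12625113 for SM, and 17918908 for input, where a tag is 1 aligned read. Levels are given as CPM, tags in each 1000000 tags of the library, and ratios are ratios of CPM. Chromosomes 1 to 20 were cut into 25572 windows of 100 kb. Windows with fewer than 172 input tags, 0.25 times the median, were left out, and the 24683 others were sorted by input tags into 10 equal density classes. The median window had 206 tags from MS, 309 from SS, 332 from MM, 445 from SM and 697 from input. In 10 kb steps there were 231079 windows with enough input.

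The broad distribution of tags over input density moved in opposite directions in the pairs. In the richest class of 100 kb windows the ratio of MS to SS was 1.070 (95% exact interval 1.067 to 1.073), whereas that of MM to SM was 0.963 (0.962 to 0.965). In the poorest class MS to SS was 0.909 (0.904 to 0.913) and MM to SM 1.023 (1.018 to 1.027). MS to SS was higher in each class than in the one below it. MM to SM was highest in the fourth class, at 1.039 (1.035 to 1.042), and lower in each class above that. Windows of 10 kb gave the same order, with 1.067 and 0.961 in the richest class and 0.904 and 1.021 in the poorest. The richest class over the poorest, which no scaling of a library can change, was 1.178 for MS to SS and 0.942 for MM to SM in 100 kb windows. The side of 1 of a single class does depend on scaling, and by input-poor windows, which sets the poor classes near 1, both pairs were below 1 in the poorest class, at 0.970 and 0.991 in 100 kb windows and 0.966 and 0.990 in 10 kb windows.

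**Figure D1:**
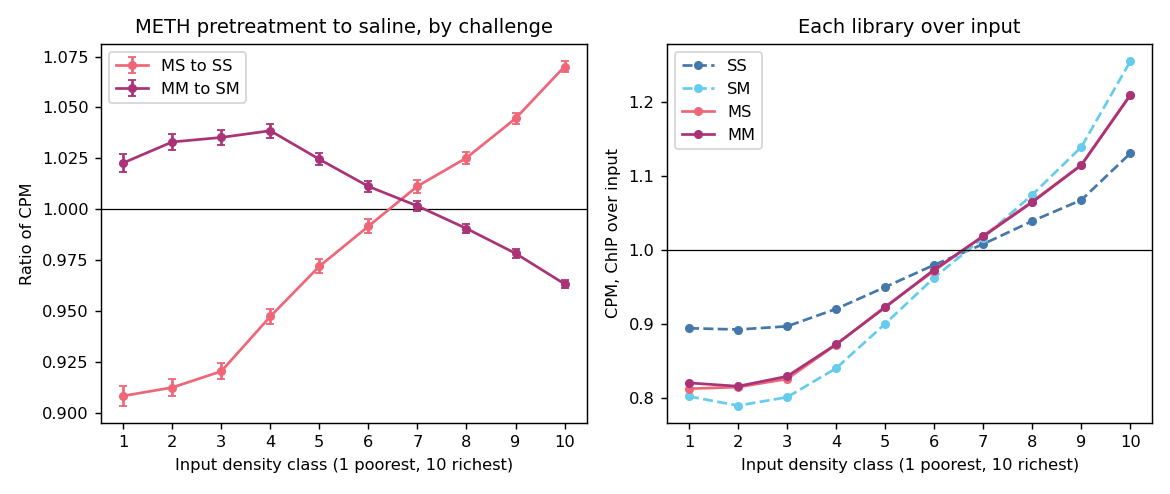
Left, ratio of CPM, METH-pretreated to saline-pretreated library, in 10 classes of 100 kb windows sorted by input tags (1 poorest, 10 richest), for MS to SS and MM to SM, with exact 95% intervals of counting error. Right, CPM of each ChIP library over those of input in the same classes. The lines of the pairs cross between the sixth and the seventh class, and the MS and MM lines lie almost on each other, between those of SS and SM in every class but the seventh.

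Set against input in 100 kb windows, MS and MM lay between SS and SM in every class but the seventh, where they were at 1.020 and 1.019, above SM at 1.017 and SS at 1.008. In the richest class SS stood at 1.13 times input, both MS and MM at 1.21 and SM at 1.26. In the poorest class SM stood at 0.802 times input, MS at 0.813, MM at 0.820 and SS at 0.894. Over the 10 classes MM differed from MS by a ratio of only 0.999 to 1.010, while SM to SS ran from 0.885 to 1.110. SS had the flattest distribution over input density and SM the steepest.

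Whole chromosomes showed the same opposition. Of 20 chromosomes, 2 were above 1 in both pairs, 2 were below 1 in both, and 8 lay apart each way. On 11 chromosomes both intervals excluded 1 on opposite sides, and on 0 chromosomes on the same side. Chromosome 12, the one with most input tags per kb (8.30), had the highest MS to SS ratio, 1.049 (1.042 to 1.057), and the lowest MM to SM ratio, 0.966 (0.961 to 0.971). Chromosome 13 had the lowest MS to SS ratio, 0.978 (0.973 to 0.983), with MM to SM at 1.006 (1.002 to 1.011). Chromosome 2, with the fewest input tags per kb (6.05), had the highest MM to SM ratio, 1.012 (1.009 to 1.015), with MS to SS at 0.978 (0.974 to 0.981). Scaled by input-poor windows, which multiplies all chromosomes of a pair by 1 factor, chromosomes 2 and 13 turned round, with MS to SS at 1.044 on both and MM to SM at 0.981 and 0.976, while chromosome 12 kept its directions at 1.121 and 0.936. No chromosome was then on the same side of 1 in both pairs. This follows from the factors, 1.068 and 0.969, which put every chromosome above 1 for MS to SS and below 1 for MM to SM. Across the 20 chromosomes, which share their libraries and differ in base composition, the Pearson correlation with input tags per kb was 0.928 for MS to SS and -0.819 for MM to SM, given as a description.

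Few 100 kb windows moved alike. The limit was a log2 ratio of 0.32 in size in each pair. Past it and higher in both pairs were 11 windows (0.0446% of those tested), and lower in both were 52 (0.211%). Windows that moved apart by that much were more numerous, with 104 (0.421%) lower in MS and higher in MM and 11 (0.0446%) the other way. This excess depended on the setting, since windows centred by input class gave 24 higher and 35 lower alike against 27 and 33 apart, and a limit of 1.5-fold gave 0 and 9 alike against 0 and 5 apart. Scaled by input-poor windows, 18 and 41 were alike and 41 and 44 apart. Each pair alone held many more, 479 higher and 1999 lower in MS to SS, and 547 higher and 254 lower in MM to SM. The pairs fell on the same side of 1 in 44.1% of windows, with a Pearson correlation of their log2 ratios of -0.12 across 24683 windows. Within single density classes this correlation was nearer 0, from -0.089 to 0.006, so the value over all windows holds the opposed density trends. At 10 kb the same side was shared by 49.0% of windows, with a correlation of -0.02. Both METH-pretreated libraries lay above both saline-pretreated ones in 2981 windows (12.1%) and below both in 3360 (13.6%). The smaller of the 2 folds was 1.256 in the window just inside the limit on the higher side and 1.249 just outside it, and on the lower side 1.251 and 1.246.

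**Figure D2:**
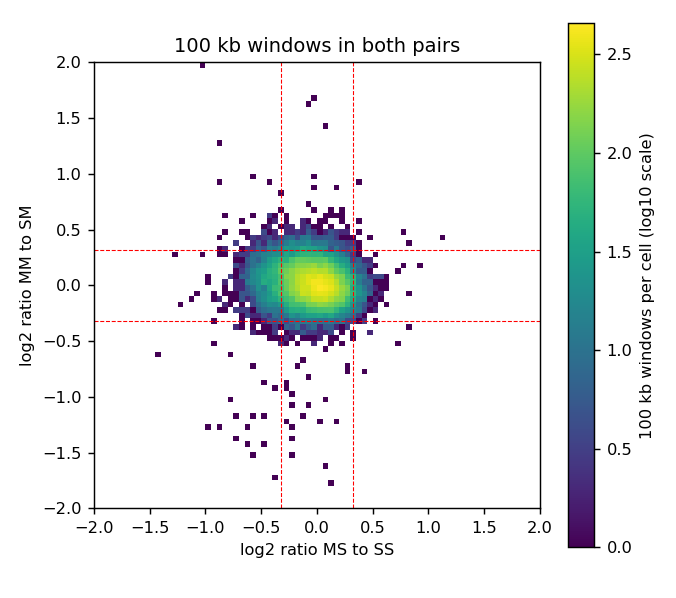
Number of 100 kb windows (colour, log10 scale) by log2 ratio of MS to SS (x axis) and of MM to SM (y axis), with ratios beyond 2 drawn at the edge and dashed lines at the limit of 0.32 in size. The cloud sits near 0 and is wider along the x axis (SD 0.198) than along the y axis (SD 0.152). More windows lie past the limit on the low side of MS to SS (1999) than on the high side (479). The corners that hold windows past the limit alike in both pairs contain 11 windows at the upper right and 52 at the lower left.

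The alike windows lay mostly where input was poor. The poorest class held 6 of the 11 higher windows and 40 of the 52 lower ones, or 1.62% of its 2469 windows. It also held 54 of the 104 windows lower in MS and higher in MM. The 5 richest classes held 2 alike windows in all, both lower, and the richest class held 0. The spread of the ratios moved with this, since the SD of log2 MS to SS was 0.26 in the poorest class and 0.13 in the richest, and that of MM to SM 0.25 and 0.10. At 10 kb with a limit of 2-fold, 116 windows (0.0502%) were higher in both pairs and 325 (0.141%) lower in both, against 141 (0.061%) and 352 (0.152%) that lay apart. With a pseudocount of 5 the alike windows were 31 higher and 9 lower, the other way round, and 339 and 319 had both intervals excluding 1 with no limit on fold. The poorest class held 86 of those 116 and 214 of those 325.

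Some alike windows lay near each other and formed 4 groups, 1 higher and 3 lower, in which each window was within 1 Mb of the next. They held 2 of the 11 higher and 16 of the 52 lower windows, and this grouping was set after the values were seen. In chr3:138000001-138300000 all 3 windows were past the limit. SS had 89.5 CPM there and SM 104, against 58.4 for MS and 48.4 for MM, with input at 123, so both METH-pretreated libraries lay far below both saline-pretreated ones. The ratios were 0.652 (0.572 to 0.741) for MS to SS and 0.466 (0.418 to 0.519) for MM to SM. In the flanks, 1 Mb on either side, these ratios were 0.929 and 1.108, but the flank included chr3:137850001-137900000, where SM held 2 tags and MM 72.

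On chromosome 6 the region chr6:139000001-139800000 held 8 windows, of which 5 had enough input. All 5 were on the lower side in both pairs and 4 of them past the limit. The region was poor in input, with 2.34 input tags per kb against 6.75 on the whole chromosome. Its CPM and ratios are of all 8 windows. SS had 113 CPM there and SM 69.3, against 63.1 for MS and 45.8 for MM, with input at 105. SS stood above the other 3 libraries, and SM was close to MS. The pair after saline challenge had a ratio of 0.557 (0.493 to 0.628) and that after METH challenge 0.660 (0.587 to 0.742), against 0.895 and 0.964 in the flanks.

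The widest region was chr7:3800001-6300000, with 25 windows, of which 22 had enough input. Of these 22, 18 were lower in both pairs and 9 past the limit. This region too was poor in input, with 2.35 input tags per kb against 6.92 on the whole chromosome. Its CPM and ratios are of all 25 windows. SS had 215 CPM there and SM 306, against 169 for MS and 131 for MM, with input at 328. MM to SM was 0.429 (0.402 to 0.458) against 0.977 (0.925 to 1.031) in the flanks. MS to SS was 0.786 (0.727 to 0.849), which did not differ from its flanks at 0.792 (0.742 to 0.845) beyond counting error, so only MM to SM set this region apart from its surroundings. It also held the longest run of windows on the lower side in both pairs, 11 windows at chr7:5200001-6300000 with ratios of 0.781 and 0.430. The next longest, 8 windows at chr9:67500001-68300000, had ratios of 0.869 (0.810 to 0.932) and 0.912 (0.862 to 0.965).

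**Figure D3:**
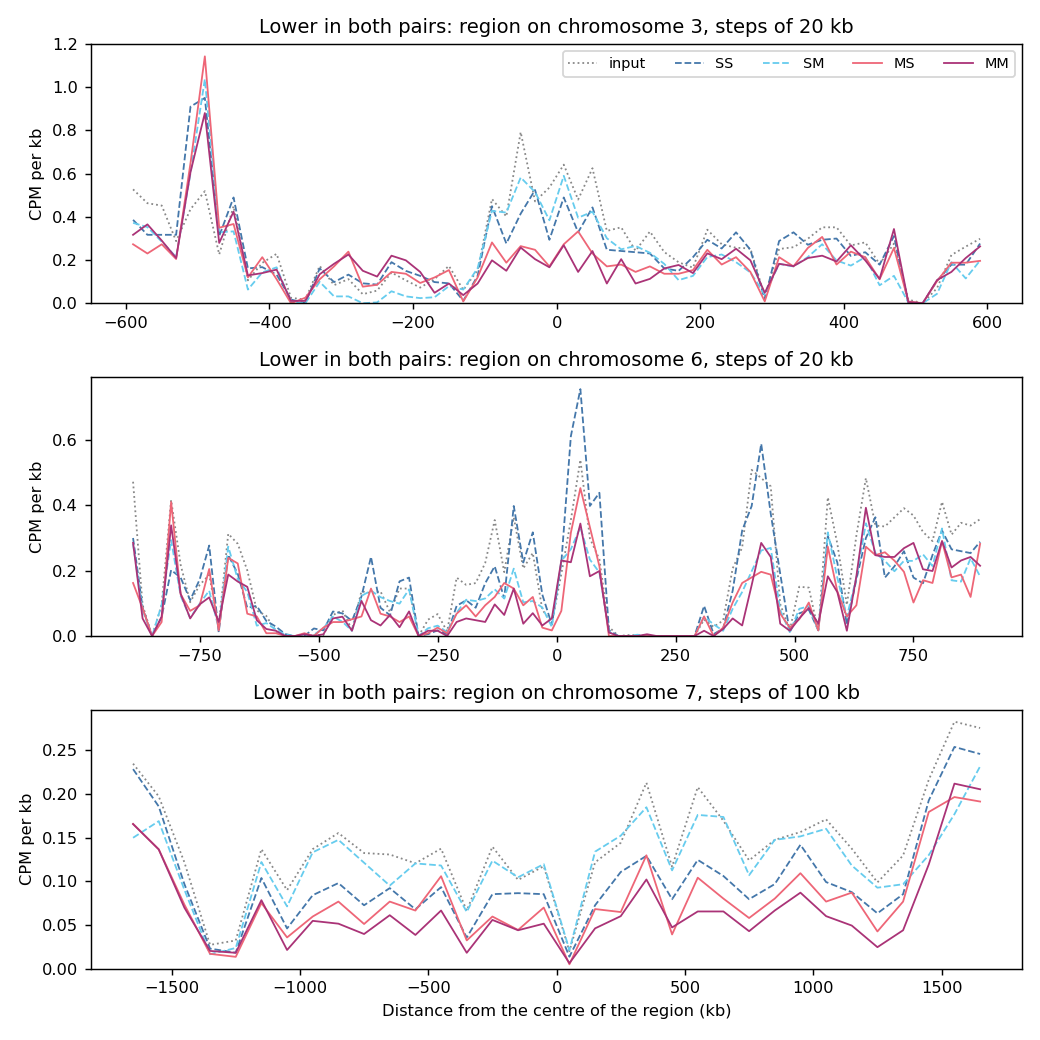
CPM per kb of input and the 4 ChIP libraries along the 3 regions lower in both pairs, against distance in kb from the centre of each region. On chromosome 3 the MS and MM lines lie below the SS and SM lines in most steps of the centre (0.3 Mb), on chromosome 6 SS is the highest ChIP library at the tallest peaks but not in every step, and on chromosome 7, over most of 2.5 Mb, MM is the lowest and SM the highest of the ChIP libraries.

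In 50 kb windows with at least 87 input tags, both METH-pretreated libraries were at least 1.5-fold below both saline-pretreated ones in 24 of 48687 (0.0493%) and at least 1.5-fold above both in 1 (0.00205%). Of the 24, 11 lay in or beside the chromosome 7 region, 2 in that of chromosome 3 and 1 in that of chromosome 6. This limit was also chosen after the data were seen.

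The higher group was chr12:18700001-18900000, with 34.3 CPM for SS and 23.9 for SM, against 44.7 for MS and 37.9 for MM, with input at 52.1. Its MS to SS ratio was 1.30 (1.10 to 1.54) and MM to SM 1.58 (1.36 to 1.85), against 1.06 and 1.03 in the flanks. The libraries of the groups did not overlap, which the choice of windows by both folds makes likely, and MM lay close to SS. The longest runs on the higher side were 6 windows each, with small ratios of 1.048 and 1.088 at chr1:44600001-45200000 and 1.036 and 1.058 at chr8:53300001-53900000. Because 1 input served all groups, a difference in the amount of acetylated H4 at any of these regions cannot be told apart from one in DNA copies between the pools.

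Of the 24683 windows of 100 kb, 8 higher and 23 lower were past the limit in both pairs with input of 0.5 to 2 times the median. The 5 of them with the largest smaller fold on each side were examined one by one. The first on the higher side, chr10:104800001-104900000, had 13.4 CPM for SS and 16.4 for SM, against 23.2 for MS and 22.8 for MM, with input at 24.3. The ratios were 1.74 (1.35 to 2.24) and 1.39 (1.14 to 1.69) in the order MS to SS and MM to SM. With libraries thinned to the total of MS, the latter was 1.13 (0.864 to 1.48), no longer past the limit and with an interval that included 1. In this window the METH-pretreated libraries were near input and the saline-pretreated ones under it. At chr15:68900001-69000000 SS had 27.0 CPM and SM 24.8, against 35.2 for MS and 32.3 for MM, with ratios of 1.30 (1.08 to 1.58) and 1.30 (1.11 to 1.53). In the other three, chr12:18800001-18900000, chr1:64700001-64800000 and chr3:78900001-79000000, MS to SS ran from 1.27 to 1.32 with intervals that included 1, and MM to SM from 1.29 to 1.89 with intervals above 1.

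On the lower side chr3:138100001-138200000 came first, with 41.6 CPM for SS and 46.2 for SM, against 25.1 for MS and 20.5 for MM. Its ratios were 0.603 (0.494 to 0.732) and 0.444 (0.375 to 0.524). It lay in the ninth density class, so it was not one of the many poor windows. At chr13:53000001-53100000 SS had 18.6 CPM and SM 18.8, against 9.73 for MS and 13.0 for MM, with ratios of 0.524 (0.381 to 0.713) and 0.692 (0.551 to 0.865). At chr4:24300001-24400000 SS had 23.2 CPM and SM 21.7, against 15.5 for MS and 16.1 for MM, with ratios of 0.670 (0.517 to 0.863) and 0.742 (0.604 to 0.909). In these windows the groups did not overlap, which the choice by both folds makes likely. Both METH-pretreated libraries lay below both saline-pretreated ones in 13.6% of all 100 kb windows. At chr2:105500001-105600000 and chr14:22300001-22400000 the ratios lay between 0.725 and 0.750, and the MS to SS interval of the former reached 1.002. That of the latter was 0.801 (0.603 to 1.06) scaled by input-poor windows, no longer past the limit, and 0.745 (0.550 to 1.01) when thinned.

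Among 231079 windows of 10 kb, both intervals excluded 1 in 339 higher and 319 lower alike, and in 410 and 392 that lay apart. Of the alike ones, 23 higher and 69 lower were past the 2-fold limit in both pairs, with input of 0.5 to 2 times the median. Their intervals thus exclude 1 by choice. The largest on the higher side, chr5:53970001-53980000, held 7 tags of SS and 11 of SM, against 17 of MS and 22 of MM. At chr5:47320001-47330000 the tags in the same order were 14, 17, 24 and 36, and at chr7:47820001-47830000 they were 7, 13, 13 and 24. With libraries thinned to the total of MS, MM to SM was 2.20 (0.705 to 8.08) in the first and 2.00 (0.755 to 5.85) in the last of these, with intervals that included 1. These counts are low, and the intervals of their ratios ran from 1.02 to 10.3. On the lower side chr15:63320001-63330000 held 35 tags of SS and 29 of SM, against 5 of MS and 6 of MM, with ratios of 0.212 (0.065 to 0.542) and 0.281 (0.095 to 0.688). At chr13:4680001-4690000 there were 36, 37, 7 and 8 tags, and at chr9:81160001-81170000 there were 19, 23, 3 and 4.

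A fit of edgeR to all windows, with challenge and pretreatment as terms, tested the difference with METH pretreatment taken over both pairs. The 4 libraries leave 1 residual degree of freedom, the interaction of pretreatment and challenge taken as error, so it is not a replicate test. The error of a window was drawn toward that of all windows, so a call does not show that the pairs moved alike. At a Benjamini-Hochberg adjusted p of 0.05, edgeR called 0 of 24683 windows of 100 kb higher (0%) and 2 lower (0.0081%) with METH pretreatment. At an unadjusted p under 0.05 there were 196 and 278, together a smaller share of the windows than 0.05. DESeq2 called 0 in either direction, with 4 and 16 at an unadjusted p under 0.05. The edgeR counts of higher and lower windows were 0 and 6 with TMM, 0 and 6 without the challenge term, 1 and 6 without the input filter and 2 and 10 with an offset by input class. The 2 windows called by edgeR were neighbours in the chromosome 3 region, chr3:138000001-138100000 with a log2 difference of -0.90 (edgeR adjusted p = 0.00034) and chr3:138100001-138200000 with -0.97 (edgeR adjusted p = 1.04e-11). In both windows both METH-pretreated libraries lay below both saline-pretreated ones, as in 13.6% of all 100 kb windows.

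At 10 kb edgeR called 0 windows higher (0%) and 1 lower (0.000433%). At an unadjusted p under 0.05 there were 4163 and 4930, also together a smaller share of the 231079 windows than 0.05. The called window, chr17:4280001-4290000 (edgeR adjusted p = 3.49e-05), held 252 tags of SM, against 31 of SS, 25 of MS and 34 of MM, with 209 of input. SM alone stood apart there, and MS to SS was 1.19 (0.676 to 2.09), so the pairs did not move alike.

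The narrow component gave the one difference that had the same direction in both pairs throughout the chromosomes. Windows of 1 kb were called enriched at a Poisson p of 1e-05 or less over the genome mean or the local input rate, whichever was larger, and each pair was measured at windows chosen in the libraries of the other pair, so that the counted tags did not choose them. At 40331 windows chosen in SM and MM, SS held 1.57 CPM per kb and MS 1.72, with input at 0.739. They held 6.32% of all SS tags and 6.92% of MS tags, against 2.98% of input tags, so background is a part of these counts. The ratio of MS to SS was 1.095 (1.091 to 1.100). At 26625 windows chosen in SS and MS, SM held 1.69 and MM 1.79, with input at 0.756, and MM to SM was 1.057 (1.053 to 1.061). The METH-pretreated library was thus the higher one in both pairs, including the pair in which it was lower over input-rich DNA.

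The difference was centred on the enriched windows. In the flanks within 10 kb MS to SS was 1.028 (1.026 to 1.031) and MM to SM 0.985 (0.983 to 0.987). Relative to these flanks the enriched windows stood at 1.065 (1.060 to 1.070) and 1.073 (1.068 to 1.078). Taken over all enriched windows, the gap between the pairs was thus already present beside them. The ratio of each pair was also larger where enrichment in the other pair was stronger. For MS to SS the ratio was 1.075 at windows under 3-fold over background, 1.108 (1.101 to 1.114) at 3 to 5-fold and 1.118 (1.105 to 1.132) at 5-fold or more, the last 2 of which overlap. For MM to SM it was 1.010 (0.999 to 1.020), 1.054 and 1.106. Relative to the same flanks, MS to SS was 1.09 (1.07 to 1.10) and MM to SM 1.12 (1.11 to 1.13) at 5-fold or more. Under 3-fold they were 1.045 and 1.025, so the order of the pairs turned with strength. The pairs were measured at different windows.

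**Figure D4:**
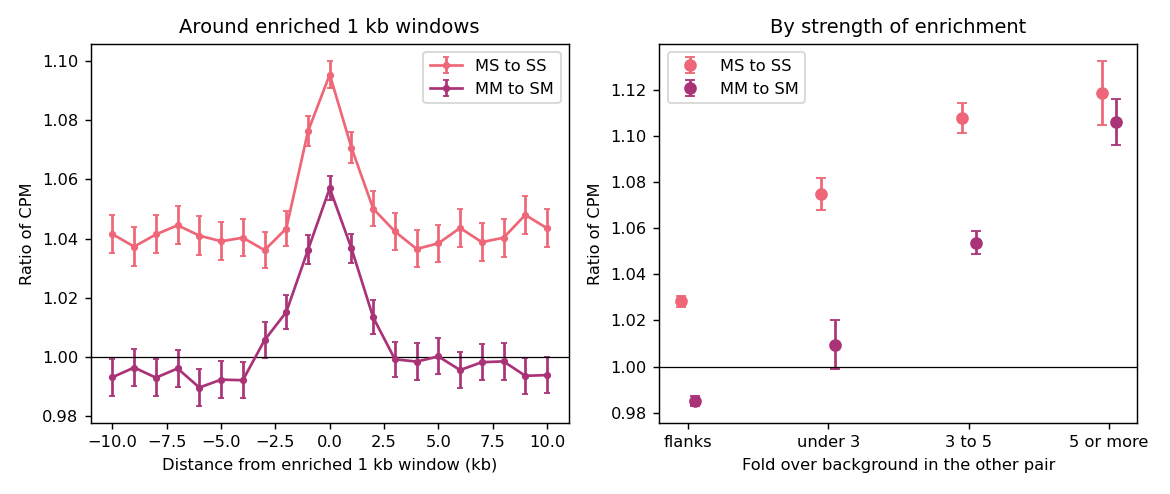
Left, ratio of CPM for MS to SS and MM to SM in 1 kb steps up to 10 kb on either side of enriched 1 kb windows chosen in the other pair, with exact 95% intervals. Right, the same ratios in the flanks and at windows under 3-fold, 3 to 5-fold and 5-fold or more over background in the other pair. Both pairs peak at the window itself, at 1.095 and 1.057, and are higher at stronger windows.

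All 20 chromosomes were above 1 in both pairs at enriched windows. The median over chromosomes was 1.098 for MS to SS, with chromosome 13 lowest at 1.057 and chromosome 8 highest at 1.117. For MM to SM it was 1.057, with chromosome 19 lowest at 1.032 and chromosome 8 highest at 1.083. Scaled by input-poor windows all 20 stayed above 1 in both pairs, with intervals above 1 on 20 for MS to SS and 13 for MM to SM, which was lowest at 1.0004 on chromosome 19. Chromosomes share their libraries and are not replicates of a treatment.

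**Figure D5:**
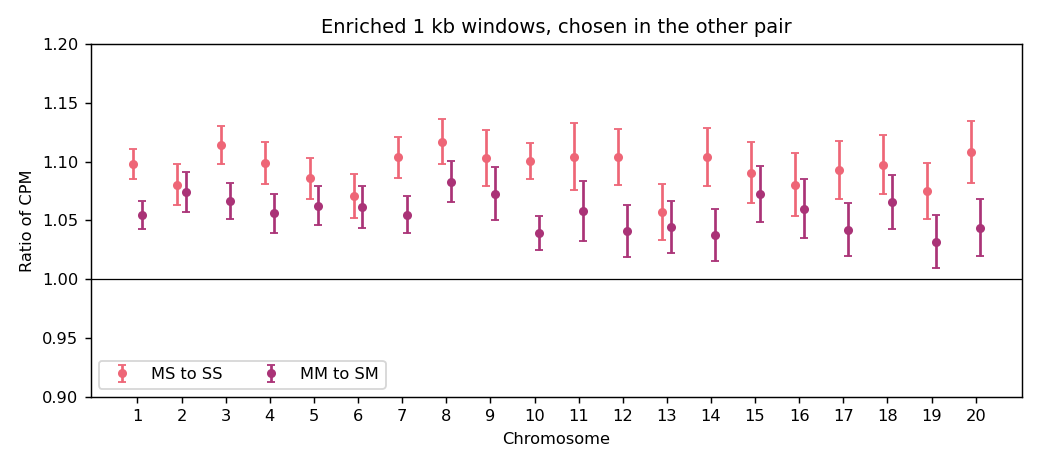
Ratio of CPM at enriched 1 kb windows chosen in the other pair, for MS to SS and MM to SM on each of the 20 chromosomes, with exact 95% intervals of counting error. Every point lies above 1, and chromosome 8 is the highest in both pairs.

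By input density, enriched windows were above 1 in all 10 classes in both pairs, from 1.037 to 1.113 for MS to SS and from 1.024 to 1.098 for MM to SM. The intervals of the poorest class included 1 in both pairs, as did that of the second class for MM to SM. Scaled by input-poor windows, MS to SS was above 1 in 10 classes and MM to SM in 9, with the second class at 0.993. In the richest class, where the pairs moved apart over all tags, the enriched windows stood at 1.084 (1.077 to 1.091) and 1.043 (1.036 to 1.050). There the MS to SS ratio at enriched windows was close to that of all tags in the class, with a quotient of 1.016, whereas that of MM to SM was 1.085. The order was the opposite in the poorest class, with 1.147 and 1.022, and in the second class the MM to SM quotient was below 1, at 0.990.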

How the data were processed

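ChIP-Seq of H4K5Ac in the dorsal striatum was analysed in 1 pooled library each of SS, SM, MS and MM and 1 input library. The authors aligned the reads with the Gerald program, and the submitters' processing notes name rn4. Its version and any filter were not stated in what was read here. The values the authors deposited are whole-number tag counts in the 1 kb around each 100 bp step, neither normalized nor corrected for input. Steps that do not overlap were kept and summed to 10 kb and 100 kb on chromosomes 1 to 20.

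Ratios used CPM over all chromosomes, with a pseudocount of 0.5 in limits on fold, and have exact conditional binomial (Clopper-Pearson) 95% intervals, which cover counting error only. edgeR's quasi-likelihood test was fitted to all windows past the input filter. Named windows were, at 100 kb, the 5 per direction with the largest smaller fold at an input of 0.5 to 2 times the median, counting windows within 1 Mb once; at 10 kb, the 3 per direction with both intervals excluding 1; the 2 longest runs per direction; and the chromosomes with the extreme ratios. The comparison, limits and lists were chosen with earlier results of these data known, and the grouping of windows after their values were seen. Scripts were tested on simulated data. The analysis used Python 3.11.15, NumPy 2.4.6, SciPy 1.17.1, pandas 2.3.3, matplotlib 3.10.9, R 4.3.3, edgeR 4.0.16 and DESeq2 1.42.0. The gene table at hand is of GRCr8, whose last gene lay beyond the end of the deposited data on 9 of 21 chromosomes. Chromosomes X and M entered library totals only.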

Additional observations from a re-analysis of the deposited data

Results flagged for a closer look

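The broad ratios were singled out because the pairs moved in opposite directions under the same contrast. The difference between the pairs was not tested, since each group is 1 library. In the richest input class MS to SS was 1.070 and MM to SM 0.963 in 100 kb windows, and 1.067 and 0.961 in 10 kb windows. In the poorest class they were 0.909 and 1.023 in 100 kb windows, and 0.904 and 1.021 in 10 kb windows, but scaled by input-poor windows, which sets the poor classes near 1, both pairs were below 1 in this class, at 0.970 and 0.991 and at 0.966 and 0.990. On chromosome 12 they were 1.049 and 0.966, on chromosome 2 they were 0.978 and 1.012, and on chromosome 13 they were 0.978 and 1.006. With that scaling the pairs on chromosomes 2 and 13 each turned to the other side of 1.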

How the results depend on the processing

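The pairing by challenge was the challenge term of the edgeR fit. The labels give no replicate numbers, and with 1 library per group no replicate could be left out. Taken over all chromosomes, enriched windows were above 1 in both pairs under every setting run. Scaled by the 10 kb windows with input below the median, their ratios were 1.170 (MS to SS) and 1.025 (MM to SM), with a Poisson p of 1e-07 1.108 and 1.076, with 0.001 1.080 and 1.033, and thinned to the total of MS 1.107 and 1.062. Settings added after seeing the data gave 1.112 and 1.078 for windows chosen in the saline-pretreated library of the other pair alone, 1.104 and 1.068 for the METH-pretreated one, and 1.095 and 1.057 without the 4 groups of windows. The scaling of enriched windows by class and by chromosome was also added then.

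The side of 1 of the broad ratios depended on the scaling, which multiplies every class of a pair by the same factor. Scaled by input-poor windows, the richest class was 1.140 and 0.932 (10 kb) and 1.143 and 0.934 (100 kb), and the poorest 0.966 and 0.970 for MS to SS and 0.990 and 0.991 for MM to SM, so that MM to SM moved from above to below 1 in the poorest class. Chromosome 2 then had 1.044 and 0.981 and chromosome 13 had 1.044 and 0.976, both turned round. Thus 0 chromosomes were on the same side of 1 in both pairs, since the factors put all above 1 for MS to SS and below 1 for MM to SM. With 5 classes the richest was 1.059 and 0.969 (10 kb) and 1.059 and 0.970 (100 kb), and the poorest 0.910 for MS to SS (10 kb) and 1.029 and 1.029 for MM to SM. Without the input filter the poorest 10 kb class of MS to SS was 0.896. Without enriched windows the richest class was 0.947 (10 kb) and 0.95 (100 kb) for MM to SM and 1.067 (100 kb) for MS to SS.

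Counts of 100 kb windows, in the order higher in both, lower in both, MS up with MM down, and MS down with MM up, were 18, 41, 41 and 44 when scaled by input-poor windows, 32, 105, 31 and 224 when thinned, 24, 35, 27 and 33 when centred by class, 0, 9, 0 and 5 at 1.5-fold, 65, 74, 202 and 194 where both intervals excluded 1, and 48, 105, 50 and 142 without the filter. At 10 kb they were 337, 630, 292 and 715 when thinned, 151, 272, 213 and 247 when centred, 1692, 2816, 1675 and 3397 at 1.5-fold, 339, 319, 410 and 392 by intervals, 31, 9, 17 and 27 with a pseudocount of 5, and 396, 880, 518 and 843 without the filter. Thinned windows hold fewer tags, so more pass by counting error.

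edgeR called 6 windows of 100 kb lower without the challenge term, 6 with TMM, 6 without the filter (and 1 higher) and 10 with an offset by class (and 2 higher), and DESeq2 called 0. For single windows, groups of windows and chromosomes, comparisons of 1 ratio under 1 setting, over the scaling by input-poor windows, the scaling by chromosomes 1 to 20 and the thinning, stayed within the counting interval in 125 cases, moved in 3 and turned round in 4. Scaling by chromosomes 1 to 20 gave 46 of the 125 and 0 of the others, and it changes a ratio very little. Many named windows have wide intervals, so staying within them says little. The window at chr10:104800001-104900000 fell to 1.13 (0.864 to 1.48) for MM to SM when thinned.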

Other observations

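Beside the chromosome 3 region SM held almost no tags. Over chr3:137850001-137900000 there were 2 tags in SM, against 42 in SS, 30 in MS, 72 in MM and 54 in input, and 74.5 would be expected in SM from the mean rate of the other ChIP libraries. This stretch was found by a search near the groups of windows for 10 kb steps with 1 ChIP library at least 3-fold below the rest. Its bounds were thus set by these counts, so the contrast is no test. That stretch has too little input for the filter of 87 input tags. Among the 48687 windows of 50 kb past it, SM lay at least 3-fold below the other 3 ChIP libraries in 3, at chr3:137900001-137950000, chr4:99100001-99150000 and chr18:30450001-30500000. MM did so in 1, chr7:6300001-6350000, which adjoins the chromosome 7 region, and SS and MS in 0. No library lay 3-fold above the other three in any window. The limit of 3-fold was chosen after the data were seen.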
